A study of Danio rerio with 2 samples.

Results

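The genes described here code for pore-forming subunits of voltage-gated channels, 4 of calcium channels (cacna1ba, cacna1c, cacna1da and cacna1sa) and 1 of a sodium channel (scn8aa). They were chosen by Refseq ID (NM_001114548, NM_131900, NM_203484, NM_001146150 and NM_131628, in the same order) and make up 5 of 10949 Refseq IDs and 79 of 55660 introns in the deposited table. Pooled groups of whole zebrafish (Danio rerio) larvae were sequenced at 108 hours post-fertilization. The first was homozygous for the caliban allele labelled clbns841 and is called clbn, and the second was homozygous wildtype. All larvae were raised at 28.5 °C in egg water that held 0.003% PTU (1-phenyl-2-thiourea, which blocks pigment) from 24 hours on, and each was genotyped singly. RNA of about 60 larvae per genotype was pooled before poly(A) selection, so there was 1 library per group and no value has a replicate error.

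A voltage-gated channel opens when the membrane potential changes and lets a selected ion through. The alpha1 subunit of a calcium channel and the alpha subunit of a sodium channel are large related proteins with repeated domains, and each forms the pore and senses voltage by itself. Calcium entry through such channels starts transmitter release, muscle contraction and hormone secretion, while sodium channels carry the rising phase of the action potential. Introns of vertebrate genes come in a major class and a rare minor (U12-type) class, which a separate spliceosome removes. In human, genes of both channel families are among those known to hold minor introns, and caliban larvae are described by the series title as deficient in U12-type splicing. Intron class was not assigned here for any intron.

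The clbn library held 25718058 reads and the wildtype library 28309779 reads, and listed introns took 7.06% and 6.97% of them. Every listed intron had at least 1 read in both libraries, so introns without reads in either library are not analysed here. Intervals throughout are 95% intervals and cover counting error only, because the libraries were amplified and reads need not come from separate molecules. None of the differences has a replicate check. Marker genes of the tissues that use these channels were present in both whole-larva libraries. Summed gene values over the markers of skeletal muscle were 25621 in clbn and 24893 in wildtype (8 of 8 symbols measured, under 9 Refseq IDs). For neurons they were 862 in clbn and 927 in wildtype (7 of 8 measured, without gap43). For hair cells they were 66.3 in clbn and 63.6 in wildtype (3 of 5 measured), and for heart 19.2 in clbn and 18.9 in wildtype (2 of 5 measured). For endocrine pancreas they were 141 in clbn and 140.0 in wildtype (4 of 4 measured). Of that, neurod1, which is also in the neuron sum, made up 80.6 in clbn and 75.2 in wildtype. For photoreceptors the sums were 184 in clbn and 219 in wildtype (3 of 4 measured). Ratios of single markers, clbn over wildtype, ranged from 0.879 to 1.18 in muscle, from 0.839 to 1.07 in neurons, from 0.875 to 1.08 in hair cells, from 0.948 to 1.05 in heart, from 0.89 to 1.72 in endocrine pancreas and from 0.751 to 1.36 in photoreceptors. By the test below 0 introns of these markers were called, with 3 to 41 tested per list, where 2.92% of all tested introns were called higher and 1.46% lower.

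In 4 of the channel genes, 6 introns held more reads in clbn larvae, and all 6 were among the first 3 listed introns of their gene. An intron was tested where its gene had a value and the libraries together gave it 20 reads or more. Fisher's exact test compared intronic with gene reads, p-values were adjusted over all 20223 such introns of the table, and a call needed an adjusted p under 0.05 and a difference of at least 2-fold. Such a test compares the reads of these libraries, not the genotypes. Of the 20 tested channel introns, 6 were called higher in clbn (30.0%), where the share over the whole table was 2.92%. Called lower were 0, where the share was 1.46%. The minimum counts reads of both libraries, so a gain in clbn itself helps an intron to be tested and raises these shares. The second listed intron of cacna1ba, with 40 reads in clbn and 1 read in wildtype, passed only through its clbn reads. So did the called intron of cacna1c, with the same counts, and that of scn8aa, with 33 reads in clbn and 3 reads in wildtype. With no minimum, the same 6 calls stood among 79 channel introns, and the share over the whole table at that setting is not given here. These genes were picked with such gains already known, so their share describes them and is no independent evidence about the family. The 6 calls were in cacna1ba (3 of 8 tested), cacna1c (1 of 4), cacna1da (1 of 3) and scn8aa (1 of 5), while cacna1sa had no intron deep enough to test.

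**Figure D1:**
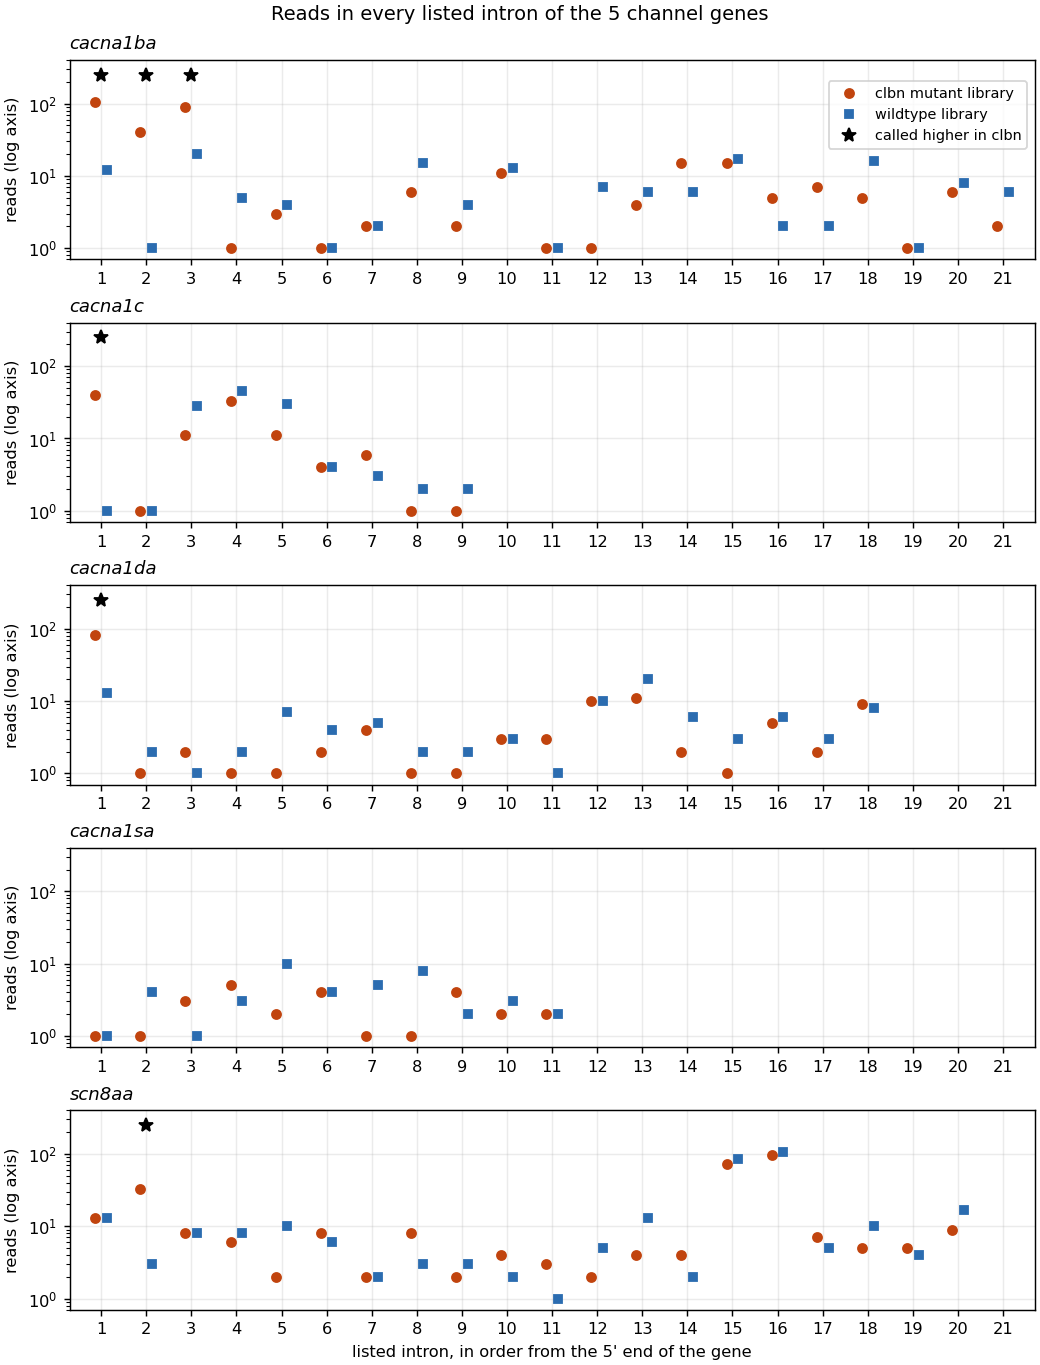
Reads (log axis) in each of the 79 listed introns, in order from the 5′ end of each gene, in the clbn library (circles) and the wildtype library (squares), with stars over the 6 introns called higher in clbn. The starred introns sit at listed positions 1 to 3, and from the fourth listed intron on no intron of any gene is called.

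In cacna1ba, which codes for the N-type calcium channel of presynaptic terminals, the first 3 listed introns were each called higher. The gene lies on the minus strand of chromosome 5 (Zv9), and its 21 listed introns span positions 30935417 to 31126469. The most 5′ listed intron (31123372 to 31126469, 3098 bp) held 106 reads in clbn and 12 reads in wildtype. That is an odds ratio of intronic to gene reads of 11.2 (5.90 to 23.2, adjusted p = 1.42e-17 by Fisher's exact test).

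The second listed intron of cacna1ba (31119359 to 31123265, 3907 bp) held 40 reads in clbn and 1 read in wildtype. Its odds ratio was 50.7 with a wide interval of 8.40 to 2073 (adjusted p = 2.48e-10, Fisher's exact test). The third (31062113 to 31119218) is 57106 bp long and held 90 reads in clbn and 20 reads in wildtype, an odds ratio of 5.71 (3.32 to 10.2, adjusted p = 1.75e-10, Fisher's exact test). Only 106 bp separate the first from the second listed intron and 140 bp the second from the third, so that the 3 introns form one block next to the 5′ end. The next listed intron, 66974 bp further on, held 1 read in clbn and 5 reads in wildtype.

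Read density fell at each step along this block in the clbn library, and in wildtype it was also highest in the first intron. In RPuKM, the authors' measure of reads per unique kilobase of intron and library size, the 3 introns had 1.4, 0.457 and 0.0835 in clbn, against 0.144, 0.0104 and 0.0169 in wildtype. The deposited gene value has no unit in its header and equals whole reads per length at the same library total. Set against it, the first intron reached 152% of its gene's level in clbn and 13.5% in wildtype. The second reached 49.5% in clbn and 0.971% in wildtype, and the third 9.05% in clbn and 1.58% in wildtype. The first intron was therefore as densely covered in clbn as its gene was by that value.

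None of the remaining 18 listed introns of cacna1ba was called, and only 5 of them were deep enough to test. Together they held 88 reads in clbn and 116 reads in wildtype, a ratio of 0.835 per library read (0.626 to 1.11). Relative to the gene's own reads 9 of them were above and 9 below an even ratio. The largest ratio among the 5 tested without a call belonged to the fourteenth listed intron, with 15 reads in clbn and 6 reads in wildtype (unadjusted p = 0.0222, adjusted p = 0.172, Fisher's exact test). The 3 called introns took 72.8% of the gene's listed intronic reads in clbn and 22.1% in wildtype. On the 5′ side the nearest listed introns belong to ehmt1a, a histone methyltransferase gene on the same strand that starts to be listed 4412 bp away. Its 3 nearest introns held 13 reads in clbn and 22 reads in wildtype. Any link between these reads and the excess in cacna1ba was not tested. No listed intron of another Refseq ID lies inside the listed span of any of the 5 genes, and whether counting used strand is not given.

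In cacna1c, the L-type channel gene of heart and smooth muscle that is also used in neurons, 1 of 9 listed introns was called. It is the most 5′ one (chromosome 4, 19308289 to 19311753, plus strand, 3465 bp) and held 40 reads in clbn and 1 read in wildtype. With the gene reads recovered from the deposited values, 8 in clbn and 9 in wildtype, the odds ratio was 40.9 (4.67 to 2019, adjusted p = 0.00102, Fisher's exact test). Those reads are the smallest whole numbers that fit the values, at a length of 249 bp, while the other 3 calcium channel genes had recovered lengths of 5444 to 6917 bp. Multiplied by 22, which brings the length into that range, they give 176 reads in clbn and 198 reads in wildtype and an odds ratio of 44.8 (7.42 to 1830).

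Downstream in cacna1c the counts leaned the other way without a call. The third listed intron had 11 reads in clbn and 28 reads in wildtype, and the fifth 11 reads in clbn and 30 reads in wildtype (adjusted p = 0.567 and 0.562, Fisher's exact test). The fourth had 33 reads in clbn and 46 reads in wildtype. Over the 8 introns without a call the sum was 68 reads in clbn and 116 reads in wildtype, a ratio of 0.645 by library total (0.471 to 0.878). The gene's introns as a whole had 108 reads in clbn and 117 reads in wildtype, so the sum over the gene did not show the gain in its first intron. The nearest listed introns on the 5′ side, 58050 bp away in the decapping gene dcp1b on the opposite strand, held 11 reads in clbn and 15 reads in wildtype over 3 introns.

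In cacna1da, the L-type channel gene of hair cells and endocrine cells, the call again fell on the most 5′ of 18 listed introns. This intron (chromosome 11, 37756376 to 37796602, minus strand) is 40227 bp long and held 81 reads in clbn and 13 reads in wildtype. Its odds ratio was 8.34 (4.49 to 16.7, adjusted p = 1.11e-13, Fisher's exact test). The other tested introns of cacna1da had 10 reads in each library (twelfth listed) and 11 reads in clbn and 20 reads in wildtype (thirteenth listed). All 17 introns without a call summed to 59 reads in clbn and 85 reads in wildtype. The ratio of these sums was 0.764 by library total (0.539 to 1.08) and 0.932 relative to the gene's reads (0.657 to 1.31). The first intron thus took 57.9% of the gene's listed intronic reads in clbn and 13.3% in wildtype.

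In scn8aa, which codes for the sodium channel Nav1.6 of neurons, the second of 20 listed introns was called. The called intron (chromosome 23, 27555748 to 27558732, minus strand, 2985 bp) held 33 reads in clbn and 3 reads in wildtype. That gave an odds ratio of 11.6 (3.64 to 59.5, adjusted p = 6.48e-06, Fisher's exact test). The first listed intron, 8813 bp long, held 13 reads in clbn and 13 reads in wildtype. The third, only 90 bp away on the other side, held 8 reads in clbn and 8 reads in wildtype and was under the minimum for the test. In dip2ba, the nearest listed gene on the 5′ side and on the same strand, the 3 nearest introns held 18 reads in clbn and 39 reads in wildtype.

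A pair of long introns near the 3′ end of scn8aa carried most of its intronic reads in both libraries. The fifteenth listed intron (11288 bp) held 73 reads in clbn and 84 reads in wildtype, an odds ratio of 0.921 (0.658 to 1.29). For the sixteenth (7906 bp) the reads were 98 in clbn and 108 in wildtype, an odds ratio of 0.962 (0.716 to 1.29). The intervals of these best-covered introns exclude a 2-fold difference in either direction. With them the called intron took 11.1% of the gene's listed intronic reads in clbn and 0.977% in wildtype.

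In cacna1sa, which codes for the alpha1 subunit of skeletal muscle that serves as voltage sensor for contraction, 11 introns were listed on chromosome 22 (894252 to 937422, minus strand) and 0 reached 20 reads. The counts ranged from 1 to 5 reads in clbn and from 1 to 10 reads in wildtype, and their sums were 26 reads in clbn and 43 reads in wildtype. The ratio of these sums was 0.666 by library total (0.393 to 1.11) and 1.26 relative to the gene's reads (0.741 to 2.09). None of these introns was tested. The fifth listed intron, with 2 reads in clbn and 10 reads in wildtype, had a ratio to the gene of 0.415 (0.0443 to 1.95), and the eighth, with 1 read in clbn and 8 reads in wildtype, one of 0.26 (0.00585 to 1.94). The upper limits of these 2 introns lie below the odds ratio intervals of the 6 called introns, the lowest of which starts at 3.32. Those of the second (5.25) and seventh (3.71) listed introns do not. For the rest the upper limits ranged from 11.2 to 327. These limits take the gene's reads as fixed, unlike the odds ratio intervals, and a difference from the called introns was not tested.

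**Figure D2:**
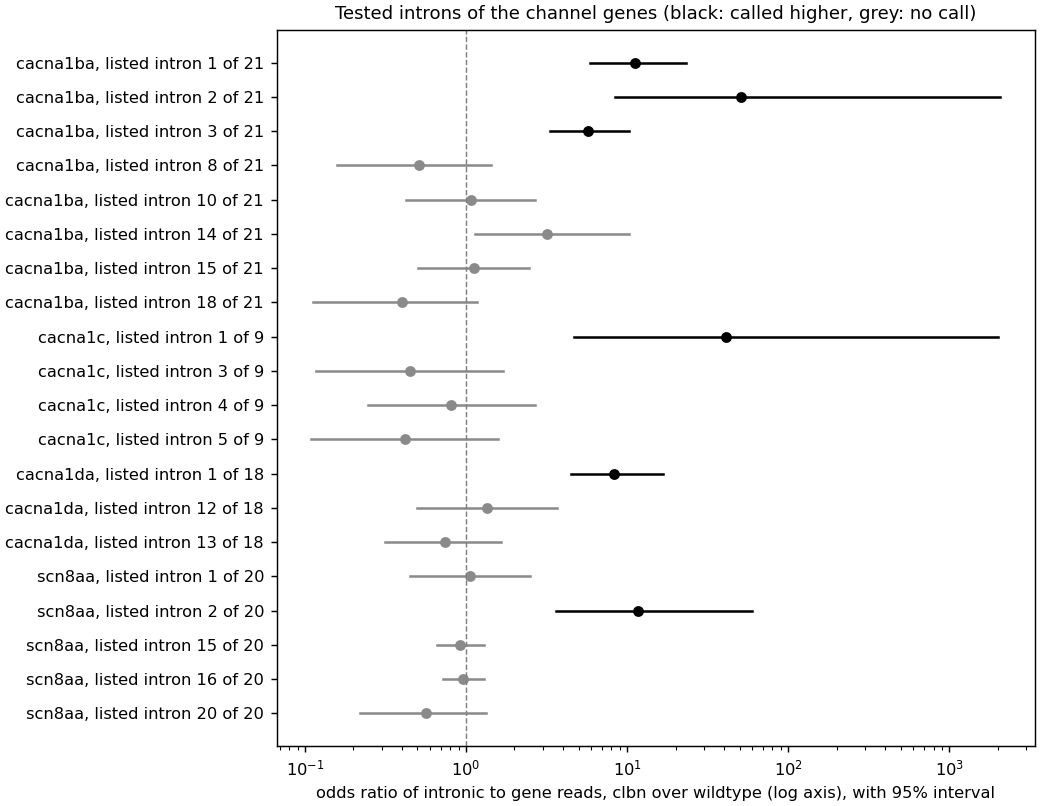
Odds ratio of intronic to gene reads, clbn over wildtype (log axis), with 95% intervals for each of the 20 tested introns, from the 5′ to the 3′ end within each gene. The 6 called introns (black) have intervals from 3.32 upwards, and 13 of the 14 others (grey) have intervals that hold 1.

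Over the 5 genes together few introns were called. A large gain in clbn tends to lift an intron over the depth minimum or to a call, and so out of the groups without a call. Values of those groups therefore only describe them and cannot show that the gain was confined to the called introns. The 14 tested introns without a call had log2 ratios of -1.25 to 1.60 with a median of -0.22. With the called introns included, the median over the 20 tested channel introns was 0.10. The median over all tested introns of the table, called ones included, was 0.03. Of these 14 introns 5 were above 0 and 9 below, and 1 had an unadjusted p under 0.05. The 59 introns under the depth minimum held 1 to 13 reads each and summed to 183 reads in clbn and 241 reads in wildtype, a ratio of 0.836 by library total (0.686 to 1.02). Relative to their gene's own reads 31 of these introns were above an even ratio and 28 below. In level, the called introns stood at 6.33% to 152% of the gene value in clbn and at 0.543% to 13.5% in wildtype, and the 14 others at 0.854% to 55.5% in clbn and at 0.806% to 78.8% in wildtype. High coverage alone did not mark the called introns, since the last listed intron of scn8aa stood at 44.2% in clbn and 78.8% in wildtype.

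The genes were picked with their gained introns already known, so the positions and lengths of these introns only describe them. All 6 called introns were among the first 3 listed introns of their gene, as were 8 of the 20 tested ones. The 3 called introns of cacna1ba form one block, so the 6 are not separate observations of position. Among other genes with at least 5 listed introns, 181 of 423 introns called higher (42.8%) and 4940 of 15519 tested introns (31.8%) were among the first 3. Called channel introns were 2985 to 57106 bp long with a median of 3686 bp, and tested channel introns without a call had a median of 4062.5 bp. Since introns without reads are not listed, a listed position can lie further from the true 5′ end than its number says.

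Of the channel genes, cacna1c ranked highest when its top intron was set against its other tested introns. Among 2741 genes with at least 3 tested introns, the highest log2 intron ratio minus the median of the gene's other tested introns had a median of 0.84 and a 99th percentile of 3.93. It was 6.06 for cacna1c (rank 2), 4.93 for cacna1ba (rank 12), 3.43 for scn8aa (rank 49) and 3.01 for cacna1da (rank 65). The channel genes were picked with such gains already known, so their ranks describe them and are no independent evidence. The top log2 ratio was 4.92 in cacna1c and 5.10 in cacna1ba. What put cacna1c ahead was the median of its other tested introns, -1.15 against 0.17 in cacna1ba. Next to cacna1c in rank stood rnf175 (6.45), a ubiquitin ligase family gene, above it, and the kinase gene pdpk1b (6.03) and the chaperonin gene tcp1 (5.95) below it. Each of these genes had 1 read in wildtype in its top intron, against 100, 139 and 81 reads in clbn. This likeness rests on 2 libraries and, for cacna1c, on a single wildtype read.

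**Figure D3:**
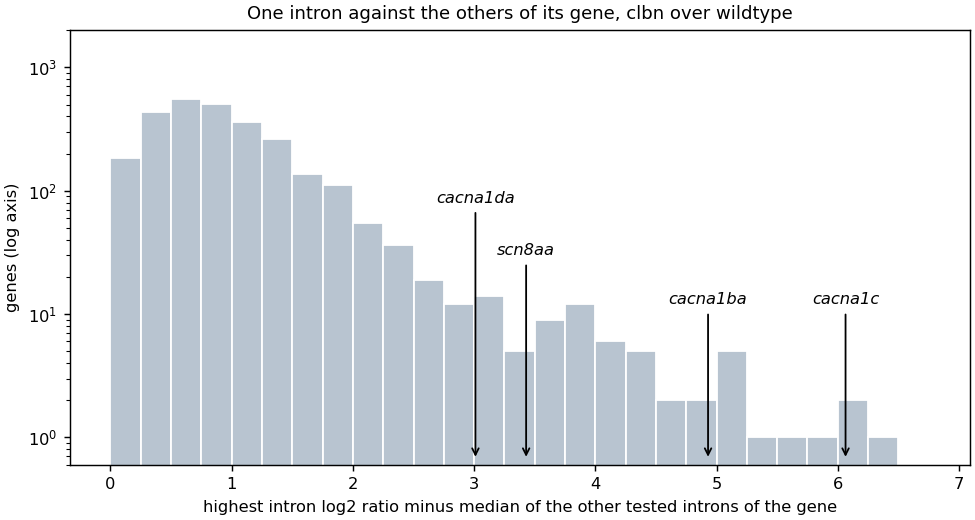
Number of genes (log axis) by the highest log2 intron ratio, clbn over wildtype, minus the median of the gene's other tested introns, for 2741 genes. Arrows mark the 4 channel genes with at least 3 tested introns, from cacna1da at 3.01 to cacna1c at 6.06, to the right of the median of 0.84. The 4 channel genes were picked with such gains already known.

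In gene value scn8aa was the highest in level and cacna1sa the furthest from an even ratio. The gene value was 7.76 in clbn and 7.47 in wildtype for scn8aa, a ratio of 1.04 (0.964 to 1.12). For cacna1da it was 1.60 in clbn and 1.95 in wildtype (ratio 0.82, 0.696 to 0.965), and for cacna1c 1.25 in clbn and 1.28 in wildtype (ratio 0.978). The interval of the cacna1c ratio was 0.329 to 2.86 with the smallest reads and 0.794 to 1.21 with 22 times as many. For cacna1ba the gene value was 0.922 in clbn and 1.07 in wildtype (ratio 0.864, 0.70 to 1.06). The intervals of scn8aa, cacna1c and cacna1ba held an even ratio and that of cacna1da did not. By level the order was scn8aa, cacna1da, cacna1c, cacna1sa, cacna1ba in clbn and scn8aa, cacna1da, cacna1sa, cacna1c, cacna1ba in wildtype, with no replicate spread to set neighbours in it apart.

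In cacna1sa the gene value was 1.01 in clbn and 1.91 in wildtype, from 142 and 295 reads, a ratio of 0.53 (0.431 to 0.65). Over all 10223 genes the median log2 ratio was 0.05, 41.0% of genes had a lower value in clbn, as did 4 of the 5 channel genes, and 1.38% of genes had a lower ratio than cacna1sa. None of the 5 genes was at least 2-fold different, as were 0.919% of all genes in the higher and 1.16% in the lower direction. Skeletal muscle markers had ratios near 1, as given above, and the paralogue cacna1sb, of which 1 Refseq ID was measured, had 9.80 in clbn and 9.95 in wildtype (ratio 0.985, 0.891 to 1.09). In bulk RNA of whole larvae, fewer cells of a type and less RNA per cell cannot be told apart. Paralogues such as cacna1sa and cacna1sb or scn8aa and scn8ab could share reads, and how reads with several matches were treated is not given in the sources used here.

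**Figure D4:**
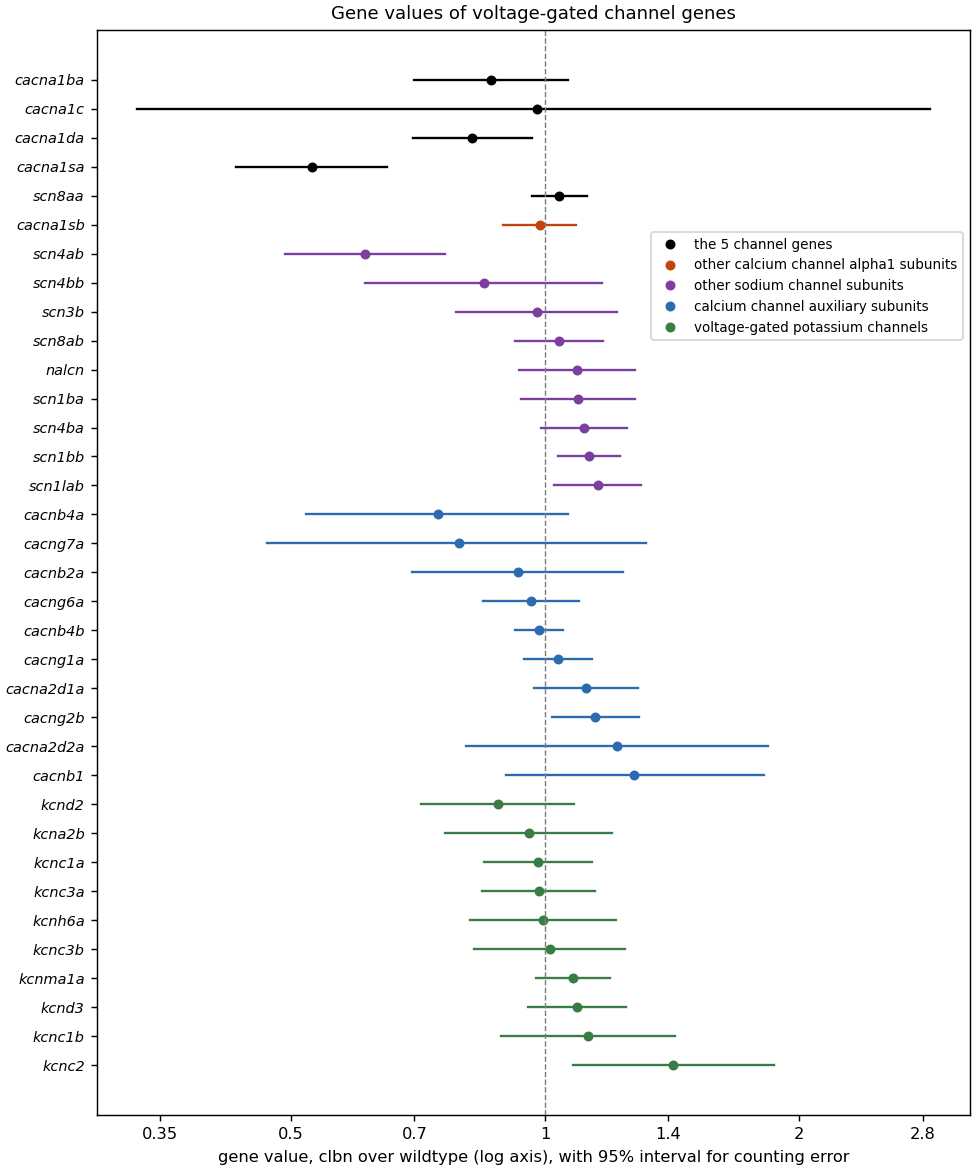
Gene value, clbn over wildtype (log axis), with 95% intervals for counting error, of the 5 channel genes and of genes of 4 channel lists with at least 50 recovered gene reads over both libraries (1 Refseq ID per symbol). The other points lie between 0.747 and 1.42, and cacna1sa at 0.53 and scn4ab at 0.613 lie to their left.

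Among pore-forming subunits outside these genes, an intron of the sodium channel paralogue scn8ab was also called higher. Of 13 further calcium channel alpha1 genes only cacna1sb was measured, and 0 of its 9 listed introns could be tested. The sodium channel alpha genes scn1lab, scn4ab and scn8ab and the leak channel nalcn were measured too. Together these 5 genes had 59 listed and 6 tested introns, of which 1 was called higher and 0 lower, where the shares over the whole table were 2.92% and 1.46%. With so few tested introns, this count says nothing about these genes as a group. The called one is the most 5′ of 13 listed introns of scn8ab (chromosome 6, 39390793 to 39405886, 15094 bp) and held 31 reads in clbn and 9 reads in wildtype. Relative to the gene it was 3.65-fold higher (1.70 to 8.72, adjusted p = 0.00938, Fisher's exact test).

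A similar imbalance stood just under the depth minimum in scn1lab, picked after its values were seen. Its most 5′ listed intron (chromosome 6, 10211762 to 10212342, 581 bp) held 18 reads in clbn and 1 read in wildtype, a ratio to the gene of 17.2 (2.71 to 715), and at 19 reads it was not tested. A further intron with 19 reads was the tenth listed of scn8ab, with 17 reads in clbn and 2 reads in wildtype (ratio 9.01, 2.14 to 80.4). By gene value, which is a different measure, the muscle sodium channel gene scn4ab had the lowest ratio of its list. It had 3.87 in clbn and 6.32 in wildtype (ratio 0.613, 0.492 to 0.76). Its 2 listed introns, neither of them tested, had ratios to the gene of 7.19 (1.43 to 69.5) and 2.40 (0.405 to 16.4).

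Auxiliary subunits and potassium channels had too few tested introns for their counts of calls to be read against the shares over the whole table, 2.92% higher and 1.46% lower. Over the 9 other sodium channel genes measured (of 14 on the list) the median log2 gene ratio was 0.13, with scn4bb at 0.847 as the next lowest and scn1lab and scn1bb the highest at 1.15 and 1.13. Calcium channel auxiliary subunits (10 of 30 symbols measured) had a median of -0.0082, from cacnb4a at 0.747 and cacng7a at 0.79 to cacna2d2a at 1.21 and cacnb1 at 1.28. Their 17 tested introns gave 0 calls. Voltage-gated potassium channel genes (10 of 26 measured) had a median of 0.005, from kcnd2 at 0.88 and kcna2b at 0.957 to kcnc1b at 1.12 and kcnc2 at 1.42, with 0 calls in 29 tested introns. None of the genes on these lists was at least 2-fold higher or lower.

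Partner genes of the channels had too few called introns for the counts to be read against the shares over the whole table. Those shares were 2.92% higher and 1.46% lower, and the counts are no result about these lists. For muscle excitation-contraction coupling (14 of 21 genes measured) the median log2 gene ratio was 0.06, with jph1a at 0.881 and atp2a1l at 0.916 the lowest and cacnb1 at 1.28 and the calcium pump gene atp2a2b at 1.3 the highest. Of its 88 tested introns 1 was higher, in the calcium pump gene atp2a1l (41 reads in clbn and 19 reads in wildtype, adjusted p = 0.0114), and 2 were lower by the same Fisher's exact test. The lower ones lay in stac3, an adaptor of the muscle calcium channel (3 reads in clbn and 21 reads in wildtype, adjusted p = 0.0155, Fisher's exact test), and in the calcium release channel gene ryr1b (4 reads in clbn and 19 reads in wildtype, adjusted p = 0.0441, Fisher's exact test). Synaptic release genes (13 of 26 measured) had a median of -0.06, with 11 genes below 0 and 2 above and 0 calls in 59 tested introns. Over all genes 41.0% had a lower value in clbn, and the direction of this list was not tested. The SNARE genes vamp1a and snap25a had the lowest ratios at 0.852 and 0.853, and cplx2b and syt1b the highest at 1.05 and 1.70 (0.967 to 3.05 for syt1b). Genes of the axon initial segment and node (7 of 18 measured) had a median of 0.03, from cntn1b at 0.812 and fgf14 at 0.814 to fgf12a at 1.03 and nfasca at 1.17. Of their 15 tested introns 1 was higher, in the adhesion gene nfasca (18 reads in clbn and 3 reads in wildtype, adjusted p = 0.0451, Fisher's exact test), where it is the twelfth of 15 listed.

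The choice of denominator did not decide the 6 higher calls, but it did decide lower ones. Set against the reads of the other listed introns of the same gene in place of gene reads, all 6 channel introns were again called higher, where the share over the table was 2.09%. The same held relative to the library total, where the share was 3.89%. By the measure within the gene the ratios were 5.55 (3.05 to 11.1), 20.8 (3.53 to 844) and 2.48 (1.52 to 4.25) for the 3 introns of cacna1ba in order from the 5′ end. For cacna1c the ratio was 68.2 (11.6 to 2762), for cacna1da 8.98 (4.97 to 17.6) and for scn8aa 12.7 (3.99 to 64.8). With this denominator 2 introns of cacna1ba, the eighth and the eighteenth listed, were called lower, where the share over the table was 1.92%. The 3 gained introns are part of the denominator of both.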

How the data were processed

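Values came from 1 intron table built on Refseq genes, with build Zv9 per the submitters' processing notes. The sources used here name no aligner, counting tool, strand setting or rule for reads with several matches. For each intron the authors deposited raw read counts of both libraries and an RPKM per unique length (RPuKM), per the file headers. Counts, unique lengths and RPuKM gave the library totals. The deposited gene values carry no unit, and for 10223 of 10223 genes they gave whole reads and a whole length within 1e-06 bp, of which the smallest solution was used (too low by a common factor in some genes). Deposited fold change, log2 and retention coefficient columns were not used. Start positions count from 0, and 1 was added. Symbols matched 9791 of 10223 gene IDs in a Refseq table of another assembly (GRCz12tu), used for names only. Groups came from the genotype labels.

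Log2 ratios used a pseudocount of 0.5. Fisher's exact tests (two-sided) were adjusted by Benjamini-Hochberg over all tested introns. The code was tried on simulated Poisson counts. These hold no amplification or replicate spread, so they give no rate of false calls for these libraries. Odds ratio intervals are exact conditional intervals and include gene reads. Other ratio intervals are Clopper-Pearson intervals of how the feature's reads split between the libraries, with the denominator taken as fixed. Python 3.11.15, scipy 1.17.1 and, for scaling alternatives, edgeR 4.0.16 and DESeq2 1.42.0 were used. The genes, lists and tests were chosen with earlier results of these data known. From each list the highest and lowest pair of ratios among genes with at least 50 reads, and members with called introns, are named. For likeness to the highest ranked channel gene, the 2 next genes above and below it in rank were to be named, and 1 stood above.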

Additional observations from a re-analysis of the deposited data

How the results depend on the processing

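The 6 called introns kept their direction and call with reads relative to the library total, with reads relative to the gene's other listed introns and with pseudocounts of 1 and 5. Their log2 ratios ranged over these alternatives from 3.25 to 4.89 for the second listed intron of cacna1ba and from 1.29 to 2.46 for the third. The pseudocount enters the log2 ratio and not the test, so adjusted p could not change with it. The count of 6 also held with no minimum on reads, with at least 4-fold and on adjusted p alone, which can only add calls. With a minimum of 50 reads 6 introns could be tested and 3 were called higher. Shares over the whole table are not given for these settings of minimum, fold and p, so the counts only describe the channel introns. With the other listed introns as denominator 2 were called lower. With that denominator 3 introns without a call changed sign, the tenth and fifteenth listed of cacna1ba (log2 -1.43 and -1.40) and the twelfth of cacna1da (-0.56), and those of cacna1ba also with the library total (-0.093 and -0.037). Without its most-read intron the summed intron log2 ratio was 0.81 in place of 1.26 for cacna1ba and -0.38 in place of 0.65 for cacna1da. The larger cacna1c gene reads were an alternative chosen after seeing the data. TMM and median ratio scaling moved every log2 ratio of genes and summed introns by -0.05, which turned the summed intron ratio of cacna1c (0.02) to -0.03, and a pseudocount of 5 turned its gene ratio (-0.02) to 0.03. Ratios on 1 to 3 wildtype reads are limited by depth. No paired analysis was possible because each group has 1 library.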
